A study of Sus scrofa with 6 samples.

Results

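The 37 genes described here encode the cell's oxygen sensing factors, its glucose and lactate transporters, the enzymes and regulators of glycolysis and other targets of the hypoxia-inducible factors. They were taken from a list of gene symbols, each matched exactly to the symbols in the deposited count matrices, and all 37 were among the 32285 gene features. Aldoa matched 2 features, of which 1 held no UMI (unique molecular identifier, a counted RNA molecule) in any gated class, so the other was used. Hif1a, Epas1, Egln1, Egln3 and Kdm3a were grouped as HIF factors and oxygen sensors, and Slc2a1, Slc2a3, Slc16a1 and Slc16a3 as glucose and lactate transporters. The glycolytic enzymes were Hk1, Hk2, Gpi1, Pfkl, Pfkp, Aldoa, Aldoc, Tpi1, Gapdh, Pgk1, Pgam1, Eno1, Pkm and Ldha, and the glycolytic regulators Pfkfb3, Pfkfb4 and Pdk1. Bnip3, Bnip3l, Ddit4, Ndrg1, Adm, Ankrd37, Mxi1, P4hb, Ero1l, Higd1a and Ak4 made up the other HIF targets.

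Hypoxia-inducible factors are transcription factors whose alpha subunits, encoded by Hif1a and Epas1, are hydroxylated by prolyl hydroxylases when oxygen is present and are then degraded. Those hydroxylases need iron, so an iron chelator such as deferoxamine stabilizes the alpha subunits without a lack of oxygen; this control acts on the protein and need not show in the Hif1a transcript. The stabilized factors raise transcription of glucose transporters, glycolytic enzymes and lactate exporters, and neutrophils are known to rely mainly on glycolysis for energy and to hold few mitochondria.

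Single-cell RNA sequencing (10x Chromium, 3' end) covered 6 libraries of unsorted skin cells, 1 per label, described by the labels as red duroc pig. They were labelled normal skin, irradiated skin, and 4 schedules of a 1 mg deferoxamine patch: pretreatment 2 weeks ahead of radiotherapy, continuous for 18 weeks, chronic at 4 weeks past recovery, and acute with 12 weeks of recovery. Labels and files disagreed: all gene features were mouse Ensembl identifiers, 4 hashtag antibodies against mouse epitopes were counted in the normal, irradiated, acute and chronic libraries, and an anti-JUN therapeutic and adhesions stand in the series title. Library names here are labels only, neither radiation nor deferoxamine is credited with a difference, and with 1 library per label no difference between labels could be tested; the age, genotype beyond breed and number of animals behind a library were not given in the sources used here.

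After filtering, 1477 to 21719 cells per library were kept, and cells were assigned to a class when they held at least 3 of its marker genes and at least 2 more than of any other class. This placed 67.7% to 81.0% of the kept cells, of which neutrophils and macrophages or monocytes were the largest classes in all libraries but pretreatment, where fibroblasts were. Keratinocytes, the defining cells of skin, made up 0.822% to 3.99% of kept cells. The pretreatment library stood apart, with 1477 kept cells at a median of 9678 UMIs (1310 to 3191 in the others) and only 20 neutrophils, under the minimum of 50, so it enters no neutrophil value. Markers of other classes were counted in gated cells, and whether as free RNA, as RNA of doublets or as the cells' own RNA was not tested. S100a9, a marker of the neutrophil gate, reached 1634, 1479.8, 2.14, 507, 1432 and 800.3 CPM (UMIs scaled to a common total for each class and library) in macrophages of the normal, irradiated, pretreatment, continuous, acute and chronic libraries. Every series of 6 values below keeps this order of libraries, and every series of 5, for neutrophils, omits pretreatment. Any 2 libraries shared 2 to 108 kept cell barcodes, at most 0.745% of the smaller library.

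**Figure D1:**
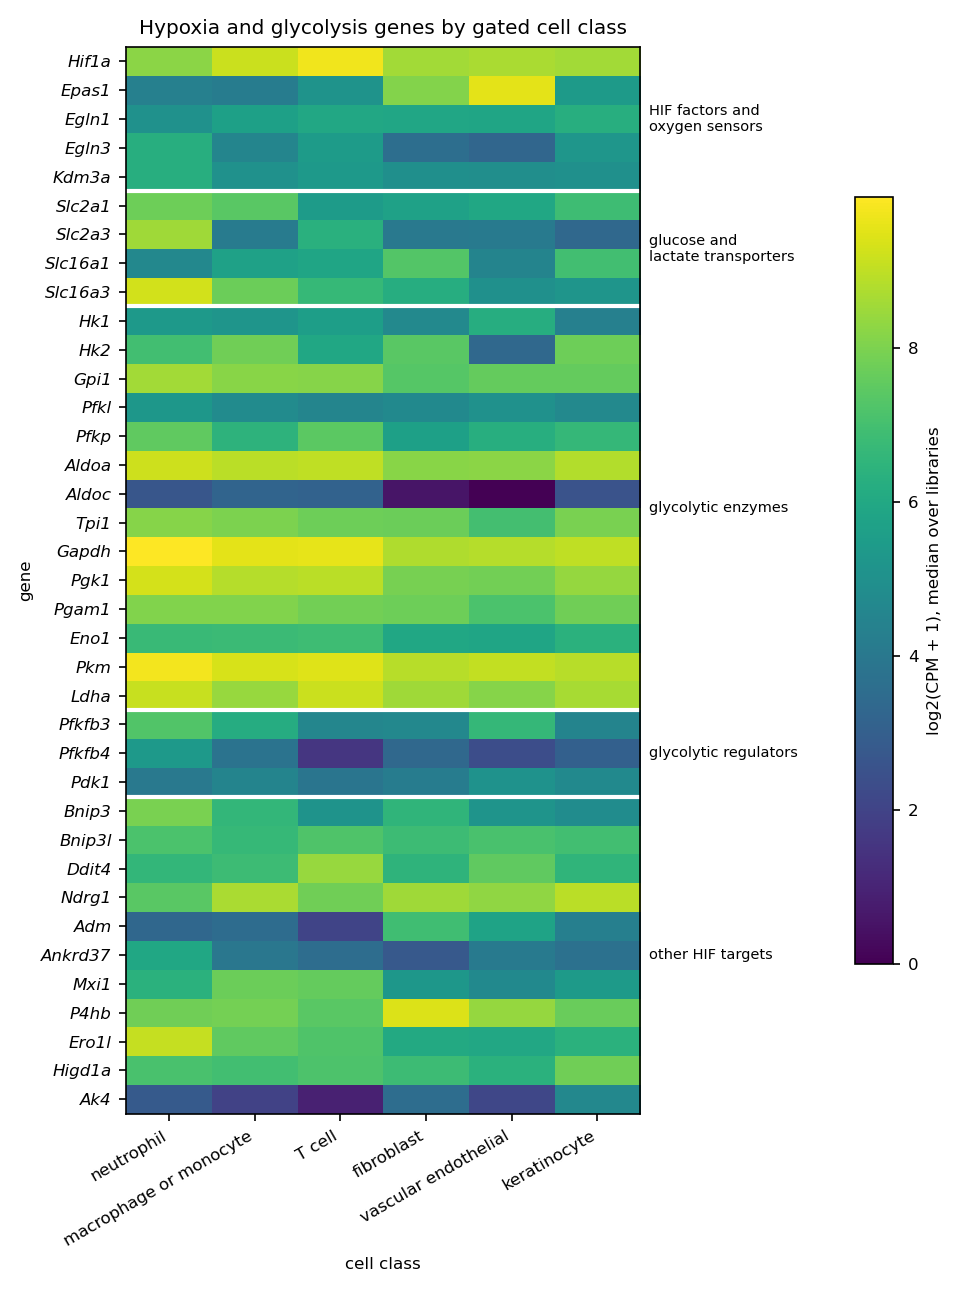
Level of each of the 37 genes (rows, grouped by role) in 6 gated cell classes (columns), as log2 of CPM plus 1, median over 6 libraries (5 for neutrophils). Slc2a3, Slc16a3, Egln3, Bnip3 and Ero1l were brightest in neutrophils, Hif1a and Ddit4 in T cells, Epas1 in vascular endothelial cells and P4hb and Adm in fibroblasts.

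Neutrophils held the highest level of more of these genes than any other class. Across the 5 libraries with all 6 classes, 10 of the 37 genes (27.0%) were highest in neutrophils in every library, against 4.95% of the 10140 genes compared in the same way. These were the prolyl hydroxylase Egln3, the histone demethylase Kdm3a, the glucose transporters Slc2a1 and Slc2a3, the lactate exporter Slc16a3, the glycolytic regulators Pfkfb3 and Pfkfb4, the mitophagy receptor Bnip3, Ankrd37 and the oxidoreductase Ero1l. T cells were highest for Hif1a and Ddit4 in every library, fibroblasts for Slc16a1, Adm and P4hb, vascular endothelial cells for Epas1 and Hk1, and keratinocytes for Higd1a and Ak4. No gene of the list was highest in macrophages or monocytes throughout, though Mxi1 was in 4 of 5 libraries. None of the 14 glycolytic enzymes other than Hk1 kept the same highest class in all 5 libraries, although Pfkp, Aldoa, Gapdh, Pgk1 and Pkm were highest in neutrophils in 4 of them.

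The 4 transporters carry glucose into cells or lactate out of and into them. Slc2a3, the high-affinity glucose transporter GLUT3, was at 372, 349, 479.8, 380.4 and 334 CPM in neutrophils and at 23.8, 27.1, 9.27, 7.72, 29 and 9.78 CPM in macrophages or monocytes, without overlap. T cells were intermediate, at 81.9, 97.3, 73.4, 77.8, 109 and 75.9 CPM. Slc16a3, which encodes the lactate exporter MCT4, was at 545, 618, 786, 623 and 518 CPM in neutrophils, above every macrophage value (216, 272, 61.4, 209.7, 285 and 153 CPM). Slc2a1, the widely expressed transporter GLUT1, was at 236, 202, 273, 218 and 219 CPM in neutrophils and 176, 185, 50.2, 161, 173 and 164 CPM in macrophages, ranges that do not overlap but lie close apart from pretreatment. In contrast the transporter MCT1, encoded by Slc16a1, was low in neutrophils at 26.6, 24.3, 15, 32.5 and 19.1 CPM and highest in fibroblasts at 160.1, 159, 59.1, 151, 173 and 126 CPM.

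To test classes within libraries, the sum of UMIs of each class in each library was fitted with edgeR's quasi-likelihood test with the library as a block, and a gene was called at a Benjamini-Hochberg adjusted p under 0.05 and a 2-fold difference. Neutrophil sums were dominated by few genes, as the 20 most abundant took 30.0% to 43.1% of their UMIs against 16.3% to 17.6% in macrophages. TMM normalization, which corrects for this, gave neutrophils scaling factors of 0.335 to 0.569 (0.850 to 1.03 in macrophages). Relative to macrophages, it thus set neutrophils about 1 log2 unit higher than scaling to total UMIs did. The shift was larger relative to T cells, where the median log2 difference of all genes was 0.37 with TMM and -1.07 on total UMIs. Both scalings are therefore given. Against macrophages, TMM called 25 of the 37 genes higher in neutrophils and 0 lower (all 13215 genes tested: 23.8% higher, 10.4% lower), with a median log2 difference of 1.39 against 0.14 for all genes. Scaled to total UMIs, 8 were higher and 4 lower (all genes: 6.35% and 44.1%), with a median of 0.39 against -0.84. The labels do not say that the libraries came from separate animals, so p-values measure only how class differences vary across these libraries. That spread was estimated over all classes together, and the libraries differ in label. The 8 genes called higher under both scalings were Egln3, Kdm3a, Slc2a3, Slc16a3, Pfkfb4, Bnip3, Ankrd37 and Ero1l.

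Slc2a3 had the largest difference from macrophages of the list, at 5.53 ± 0.34 (SE) log2 with TMM (edgeR adjusted p = 4.8e-14) and 4.49 ± 0.27 on total UMIs, higher in 5 of 5 libraries. Slc16a3 differed by 2.57 ± 0.31 (SE) with TMM and 1.5 ± 0.27 on total UMIs (adjusted p = 9.5e-06, edgeR). Slc2a1 was called with TMM only, at 1.54 against 0.50 on total UMIs. Among the sensors, Egln3, a prolyl hydroxylase that is itself a HIF target, was at 114, 63.4, 76.1, 62.3 and 88.3 CPM in neutrophils and 37.1, 21.9, 0.713, 7.03, 28.2 and 22 CPM in macrophages, a difference of 3.03 ± 0.36 (SE) log2 with TMM and 2.04 ± 0.33 on total UMIs. Egln1, the main prolyl hydroxylase of normal oxygen levels, differed by only 0.18 and -0.79 and was not called. Kdm3a, a histone demethylase induced by HIF, was at 83.1, 73.9, 80.6, 74.4 and 68.9 CPM in neutrophils, above all 6 macrophage values (30.6, 37.2, 25.2, 34.2, 36.4 and 25.3 CPM). Hif1a itself was not higher in neutrophils, at 297, 421, 221, 444 and 185 CPM against 613, 879, 119, 454, 830.1 and 531 CPM in macrophages; its difference was -0.01 log2 with TMM and -1.02 on total UMIs, where it was called lower.

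Of the other HIF targets, Ero1l, an oxidoreductase of the endoplasmic reticulum, was at 1106, 459, 149, 546 and 580.4 CPM in neutrophils and 274, 219, 36.1, 115, 229 and 147 CPM in macrophages. The values overlap between libraries, since neutrophils of the continuous library lay below 3 macrophage values, yet neutrophils were higher within each of the 5 libraries (2.52 ± 0.24 (SE) log2 with TMM, 1.56 ± 0.23 on total UMIs). Bnip3, a receptor that marks mitochondria for removal, overlapped in the same way, at 449, 247, 68.1, 253 and 212 CPM in neutrophils and 125, 130.1, 21.9, 45.3, 128 and 68.3 CPM in macrophages, and was higher within 5 of 5 libraries (2.33 ± 0.26 (SE) and 1.36 ± 0.25). Ankrd37, a small HIF target, was at 60.5, 30.2, 66.9, 44.3 and 86.8 CPM against 15.1, 14.3, 6.18, 17.9, 17.5 and 11.7 CPM and did not overlap. The related receptor Bnip3l was called with TMM only (1.52 against 0.52). Ndrg1 and Mxi1, the latter a repressor of MYC targets, were lower in neutrophils on total UMIs (-1.56 and -1.45) and uncalled with TMM (-0.58 and -0.44).

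The glycolytic enzymes depended on the scaling. With TMM, 11 of 14 were called higher in neutrophils than in macrophages (median 1.38), the uncalled ones being Hk2, Aldoc and Eno1; on total UMIs 0 of 14 were called (median 0.37). Ldha, which makes lactate from pyruvate, was at 804, 559.7, 520.1, 549 and 589.9 CPM in neutrophils and 366, 329, 369, 328, 350.1 and 333 CPM in macrophages and did not overlap (1.79 ± 0.16 (SE) and 0.78 ± 0.15 log2). Gapdh and Pkm, the pyruvate kinase gene, differed by 1.57 and 1.48 with TMM and by 0.55 and 0.47 on total UMIs. Hk2, the inducible hexokinase, was at 133, 109, 76.6, 143 and 124 CPM in neutrophils against 174, 261, 133, 264, 232 and 213 CPM in macrophages and was not called. The regulators Pfkfb3 and Pfkfb4 make the activator of phosphofructokinase: Pfkfb3 was at 156, 152, 171, 133 and 141 CPM in neutrophils against 53.5, 99.8, 38.5, 118, 86.7 and 53.7 CPM, and Pfkfb4 at 41.8, 26.7, 42.2, 26.9 and 39.9 CPM against 12.5, 13.1, 12.4, 18.7, 13.8 and 10.8 CPM. Pdk1, the kinase that turns off pyruvate dehydrogenase, was not called under either scaling (0.47 and -0.51).

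Respiration genes were no higher in neutrophils under either scaling. The 24 genes of the TCA cycle, respiratory chain and ATP synthase summed to 1295, 1283, 1320.2, 1579.5 and 1458 CPM in neutrophils and to 3332, 2867, 5075, 4209.7, 3071 and 4032 CPM in macrophages, and keratinocytes had the highest sum in every library. The 14 glycolytic enzymes summed to 6134, 4752, 4669, 4784 and 5579 CPM in neutrophils and to 4213, 4013, 3146, 3713, 3966 and 3983 CPM in macrophages. Of the 24 respiration genes, 0 were called higher and 2 lower in neutrophils with TMM (median -0.61), and 0 and 21 on total UMIs (median -1.61). Fh1, the fumarate hydratase of the TCA cycle, had the largest difference of these, -1.63 with TMM and -2.66 on total UMIs. Of the 28 further HIF-linked genes tested, 13 were higher and 2 lower with TMM, and 1 and 4 on total UMIs. Fam162a, a HIF target of mitochondria, was the 1 higher under both (2.27 and 1.26), and Car9, a carbonic anhydrase induced by HIF, was among the lower (-1.89 and -2.81). The 16 further glycolysis genes tested had 4 higher and 1 lower with TMM and 1 and 5 on total UMIs, Slc2a6 being higher under both. Pentose phosphate genes had 2 of 7 higher with TMM and 0 on total UMIs. Among all 13215 genes tested, 3139 were higher and 1375 lower in neutrophils with TMM, and 839 and 5828 on total UMIs. With TMM, the shares of further glycolysis and pentose phosphate genes called higher thus lay near that of all genes. The share of respiration genes called lower with TMM also lay near that of all genes.

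**Figure D2:**
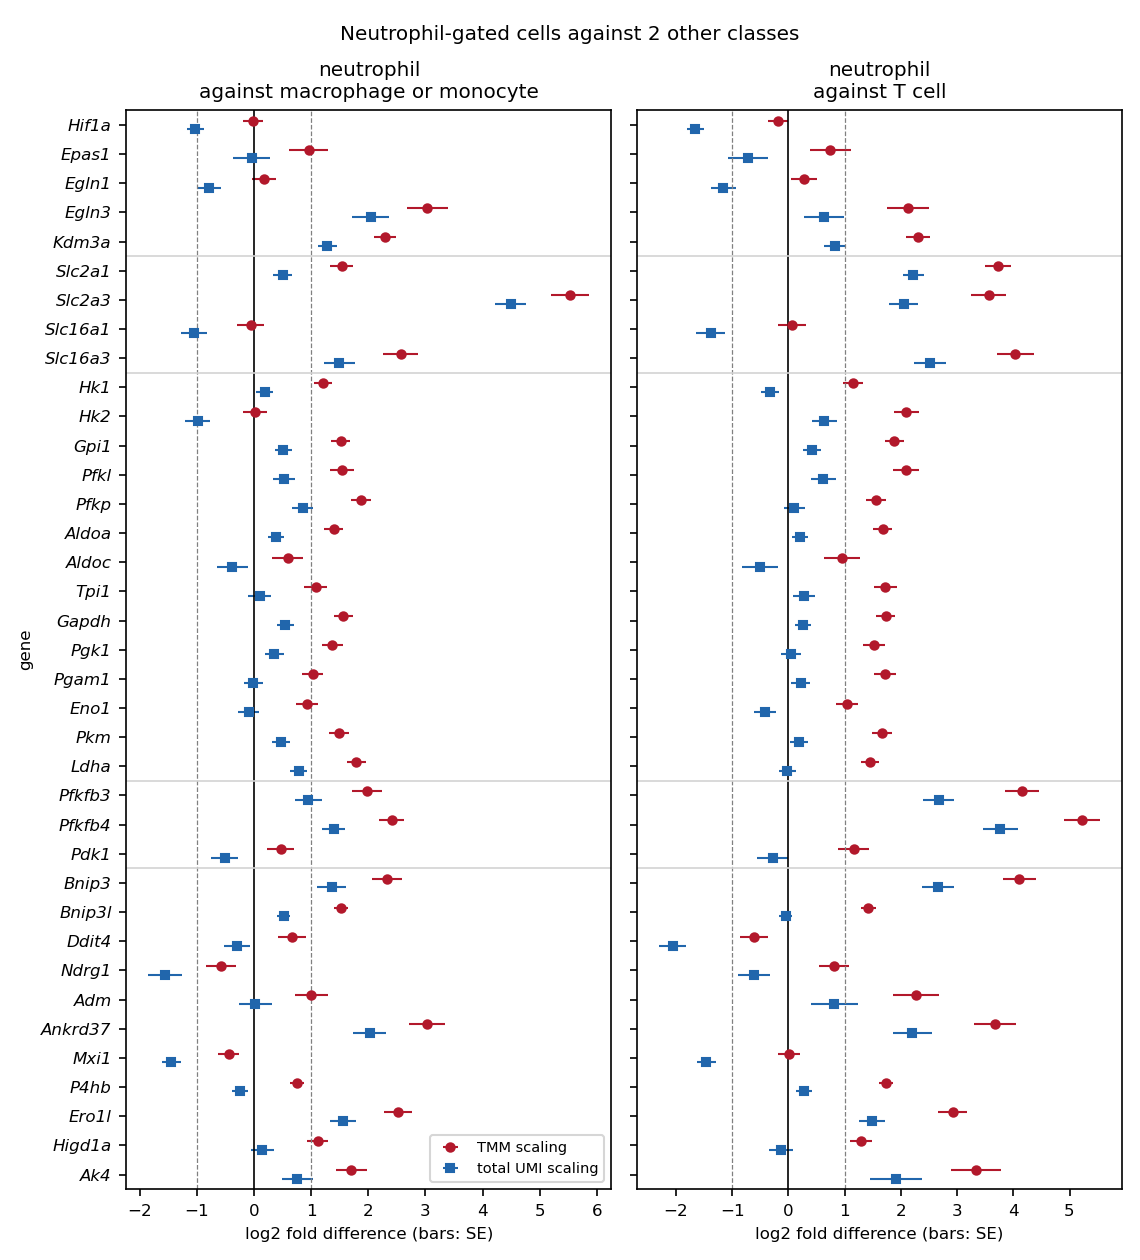
Log2 difference of neutrophils from macrophages or monocytes (left) and from T cells (right) for the 37 genes. Circles show TMM scaling and squares scaling to total UMIs. Bars show the SE derived from the F statistic of an edgeR fit over all classes and libraries. Slc2a3, Slc16a3, Pfkfb4, Bnip3, Ankrd37 and Ero1l lie past the dashed 2-fold line under both scalings in both panels. Of the 14 glycolytic enzymes, 11 (left) and 13 (right) were called with TMM and 0 on total UMIs.

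**Figure D3:**
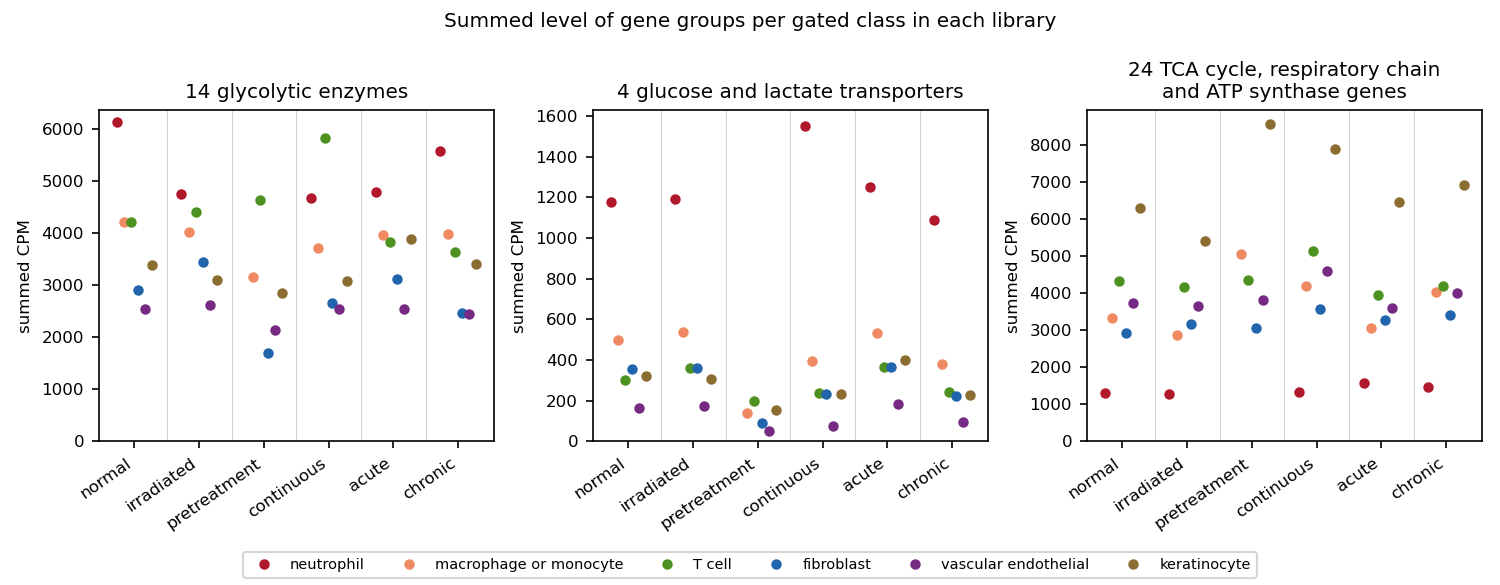
Summed CPM of the 14 glycolytic enzymes, the 4 transporters and 24 respiration genes in each library (horizontal axis), coloured by gated class, with 1 point per class and library. Neutrophils had the highest transporter sum and the lowest respiration sum in each of the 5 libraries in which they were measured. Their enzyme sum was the highest in all of these but continuous, where T cells had 5827 CPM and neutrophils 4669 CPM.

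Compared with T cells, neutrophils were higher for 29 of the 37 genes and lower for 0 with TMM (all genes 33.2% and 16.7%; medians 1.72 for the list and 0.37 for all genes). On total UMIs 9 were higher and 5 lower (all genes 12.2% and 50.6%; medians 0.22 and -1.07). The 9 genes higher under both scalings were Slc2a1, Slc2a3, Slc16a3, Pfkfb3, Pfkfb4, Bnip3, Ankrd37, Ero1l and Ak4. Pfkfb4 had the largest difference, at 5.22 ± 0.32 (SE) with TMM and 3.77 ± 0.31 on total UMIs, with T cells at 5.46, 1.3, 1.41, 2.18, 1.76 and 2.83 CPM. Its T cell values rest on only 5, 1, 1, 6, 1 and 9 UMIs, so the size of this difference is uncertain. Pfkfb3 followed, with T cells at 18.6, 37.6, 4.23, 26.9, 31.8 and 17.6 CPM and differences of 4.16 and 2.67. Ak4 was near the floor in T cells, with 2, 2, 0, 4, 0 and 1 UMIs. Hif1a, Egln1, Slc16a1, Ddit4 and Mxi1 were the 5 lower in neutrophils on total UMIs, none of them called with TMM. Ddit4, an inhibitor of mTORC1, was at 363, 389, 275, 420.4, 330.0 and 307 CPM in T cells and 107, 95.9, 50.6, 102 and 86 CPM in neutrophils. Ldha was at 564, 590.4, 682, 761, 515 and 509.6 CPM in T cells and was called with TMM (1.45) but not on total UMIs (-0.02).

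T cells were next set against macrophages. Of the 37 genes, 2 were higher and 9 lower in T cells with TMM (all genes 13.5% and 21.6%; medians -0.36 and -0.19), and 3 and 7 on total UMIs (all genes 22.2% and 15.4%; medians 0.13 and 0.26). Slc2a3 and Ddit4 were higher in T cells under both scalings, in 6 of 6 libraries (1.97 ± 0.30 (SE) and 1.28 ± 0.23 (SE) with TMM). Slc2a1 was at 43.7, 61, 33.9, 42.2, 51.2 and 35.3 CPM in T cells, below its level in macrophages in 6 of 6 libraries (-2.19 ± 0.21 (SE)). Slc16a3, Hk2, Pfkfb3, Pfkfb4, Bnip3 and Ak4 were also lower under both scalings. The glucose transporters thus differed in opposite directions between these classes. Hif1a, at 996, 1214, 301, 697, 1045 and 734 CPM in T cells, was above the macrophage value in each library but missed the 2-fold threshold (0.17 with TMM and 0.64 on total UMIs).

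Fibroblasts, compared with macrophages, were higher for 5 of the 37 genes and lower for 11 with TMM (all genes 22.8% and 19.8%; medians -0.66 and -0.03), and for 5 and 8 on total UMIs (all genes 26.5% and 16.3%; medians -0.44 and 0.19). The 5 were Epas1, Slc16a1, Adm, P4hb and Ak4, the same under both scalings. Adm, the secreted peptide adrenomedullin, was at 108, 208, 85.9, 226, 112 and 129.7 CPM in fibroblasts and 12.8, 14.4, 3.09, 4.49, 13.8 and 8.42 CPM in macrophages (3.81 ± 0.29 (SE) log2, edgeR adjusted p = 5.3e-13). P4hb, the protein disulfide isomerase that is also a subunit of the collagen prolyl 4-hydroxylase, was at 787, 826, 473, 489, 779 and 629 CPM in fibroblasts (1.23 ± 0.12 (SE)). Slc2a1, Slc16a3, Pfkp, Aldoc, Pfkfb3, Ankrd37, Mxi1 and Ero1l were lower under both scalings; Egln3, Gpi1 and Pgk1 were called with TMM only. Of the further HIF-linked genes, 9 of 28 were higher and 5 lower, led by Lox, the collagen cross-linking lysyl oxidase (6.04), and P4ha2, a collagen prolyl hydroxylase (4.68).

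Vascular endothelial cells carried Epas1, which encodes HIF-2α, at 605, 653, 896, 1122, 675 and 836 CPM, above fibroblasts (319, 323, 28.2, 216, 310.5 and 248 CPM) in 6 of 6 libraries and without overlap. The difference was 1.79 ± 0.33 (SE) with TMM and 2.08 ± 0.32 on total UMIs (edgeR adjusted p = 3.4e-05 and 2e-06). In all, 5 of the 37 genes were higher and 8 lower in endothelial cells with TMM (all genes 11.3% and 15.6%; medians -0.39 and -0.05) and 6 and 8 on total UMIs (all genes 15.6% and 12.4%; medians -0.09 and 0.25). The hexokinases split: Hk1 was higher in endothelial cells (59.1, 77.7, 70.4, 71.9, 72.6 and 74.6 CPM against 25.3, 29.8, 24, 16.5, 25.1 and 22.1 CPM), and Hk2 was lower (13.8, 26.3, 4.85, 3.99, 23.5 and 1.7 CPM against 168, 168, 109, 168, 179 and 142 CPM). Their log2 differences were 1.26 ± 0.17 (SE) and -3.96 ± 0.26 (SE) with TMM, each in the same direction in 6 of 6 libraries. The pretreatment, continuous and chronic endothelial sums held 823938, 750988 and 589806 UMIs of all genes. At 4.85, 3.99 and 1.7 CPM, Hk2 there rests on few UMIs, so the size of its difference is uncertain. Pfkfb3, a known driver of endothelial glycolysis, was also higher, at 96.2, 115, 101, 58.6, 109 and 71.2 CPM (1.79 ± 0.27 (SE)), as were Pdk1 and Ankrd37. Slc16a1, Slc16a3, Pfkfb4, Bnip3, Adm, P4hb and Ak4 were lower, like Hk2, under both scalings. Without the pretreatment or the chronic library, 3 genes were called higher in place of 5.

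Keratinocytes, compared with fibroblasts, were higher for 4 of the 37 genes and lower for 4 with TMM (all genes 13.5% and 21.8%; medians 0.01 and -0.06), and for 7 and 4 on total UMIs (all genes 16.7% and 19%; medians 0.18 and 0.12). Egln3, Slc2a1, Aldoc and Ak4 were higher under both scalings, and Epas1, Bnip3, Adm and P4hb lower. Slc2a1 was at 129, 123, 71.9, 90.1, 134 and 109 CPM in keratinocytes and 70.7, 63.1, 15.8, 42.4, 60.9 and 37.3 CPM in fibroblasts (1.09 ± 0.20 (SE), higher in 6 of 6 libraries). Ak4, a mitochondrial adenylate kinase, was at 27.9, 31.1, 22, 18.1, 25.9 and 14 CPM in keratinocytes, against 13.2, 15.6, 3.05, 5.27, 14.4 and 8.69 CPM in fibroblasts (1.16 ± 0.25 (SE)). Without the pretreatment library 2 genes were called higher in place of 4, as Slc2a1 and Ak4 then missed the 2-fold threshold (0.93 and 0.93). Ndrg1, a differentiation gene induced by hypoxia, had a wide range in keratinocytes, at 485, 837, 80, 243, 595 and 492 CPM, and was not called (-0.01). Among the 5 other classes compared, the neutrophil markers summed highest in keratinocytes in every library but pretreatment, where fibroblasts led. The keratinocyte sums over 9 markers were 8443, 6431, 224, 3992, 8269 and 12308 CPM, against 3778, 3366, 66.3, 1289.9, 3501 and 1748 CPM in macrophages. Of these markers, S100a8 and S100a9 together took 0.831, 0.627, 0.0205, 0.391, 0.804 and 1.23% of keratinocyte UMIs. Whether keratinocytes made this RNA or it came from neutrophils was not tested, nor was its part in their values.

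Between labels, each comparison sets 1 library against 1 other, so ratios of CPM carry exact 95% Poisson intervals that cover counting error only and no test was made. Genes needed at least 20 UMIs over both sums, and a 1.5-fold ratio in either direction put a gene among the higher or the lower ones. In the library labelled irradiated, neutrophils were lower than in the normal library for 9 of 37 genes and higher for 0 (all genes 11.3% lower and 12.8% higher), with a median log2 ratio of -0.33 against -0.01 for all genes. Ero1l, at 1106, 459, 149, 546 and 580.4 CPM, was 2.41-fold lower (95% interval 2.33 to 2.5). Bnip3 was 1.82-fold lower (95% interval 1.73 to 1.92), Egln3 1.8-fold lower (95% interval 1.63 to 1.99) and Ankrd37 2.01-fold lower (95% interval 1.74 to 2.32). The normal library thus held the highest Ero1l, Bnip3 and Egln3 of the 5 neutrophil libraries, though not the highest Ankrd37, which was in chronic. Gpi1, the second enzyme of glycolysis, was 1.67-fold lower (95% interval 1.59 to 1.74), and Aldoc, Pfkfb4, Pdk1 and Higd1a were the others lower. The 4 transporters and Hif1a were within 1.5-fold in neutrophils, Hif1a being at 1.42 times its normal level. Among respiration genes 0 of 24 were past 1.5-fold.

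In the other classes 2 to 6 genes were past 1.5-fold between irradiated and normal. Macrophages had 1 gene higher and 3 lower (all genes 9.73% and 8.03%), or 4 and 2 with ratios centred on the median of all genes (all genes then 11.4% and 6.02%), with Pfkfb3 1.86-fold higher (95% interval 1.65 to 2.11) and Egln3 1.69-fold lower (95% interval 1.42 to 2.02). Fibroblasts had 2 higher and 3 lower (all genes 6.41% and 9.21%): Adm was 1.93-fold higher (95% interval 1.78 to 2.1), while keratinocytes held it 2.36-fold lower. T cells had 4 of 33 higher and 0 lower (all genes 11.3% and 10.4%), all 4 at 17 to 46 UMIs in the irradiated library, and vascular endothelial cells 2 higher and 0 lower (all genes 9.88% and 10.6%). Keratinocytes had 2 higher and 4 lower (all genes 13.8% and 11.7%), with Ndrg1 1.73-fold higher (95% interval 1.53 to 1.95). Both libraries held hashtag antibodies, with medians of 2243 and 2273 UMIs per macrophage.

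The libraries labelled pretreatment, continuous and chronic each held Hif1a at least 1.5-fold lower than the irradiated library in every class measured, which was 5 classes for pretreatment and 6 for the others. In the acute library it was within 1.5-fold in 6 of 6 classes. Hif1a was at 613, 879, 119, 454, 830.1 and 531 CPM in macrophages, 996, 1214, 301, 697, 1045 and 734 CPM in T cells and 447, 547, 93.4, 294, 530.2 and 317 CPM in fibroblasts, and in each class the 3 lowest values came from those 3 libraries. In macrophages it was 7.37-fold lower (95% interval 6.74 to 8.07) in pretreatment, 1.94-fold lower (95% interval 1.87 to 2.01) in continuous and 1.66-fold lower (95% interval 1.61 to 1.71) in chronic. These comparisons share the irradiated library, so they are not independent of each other.

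**Figure D4:**
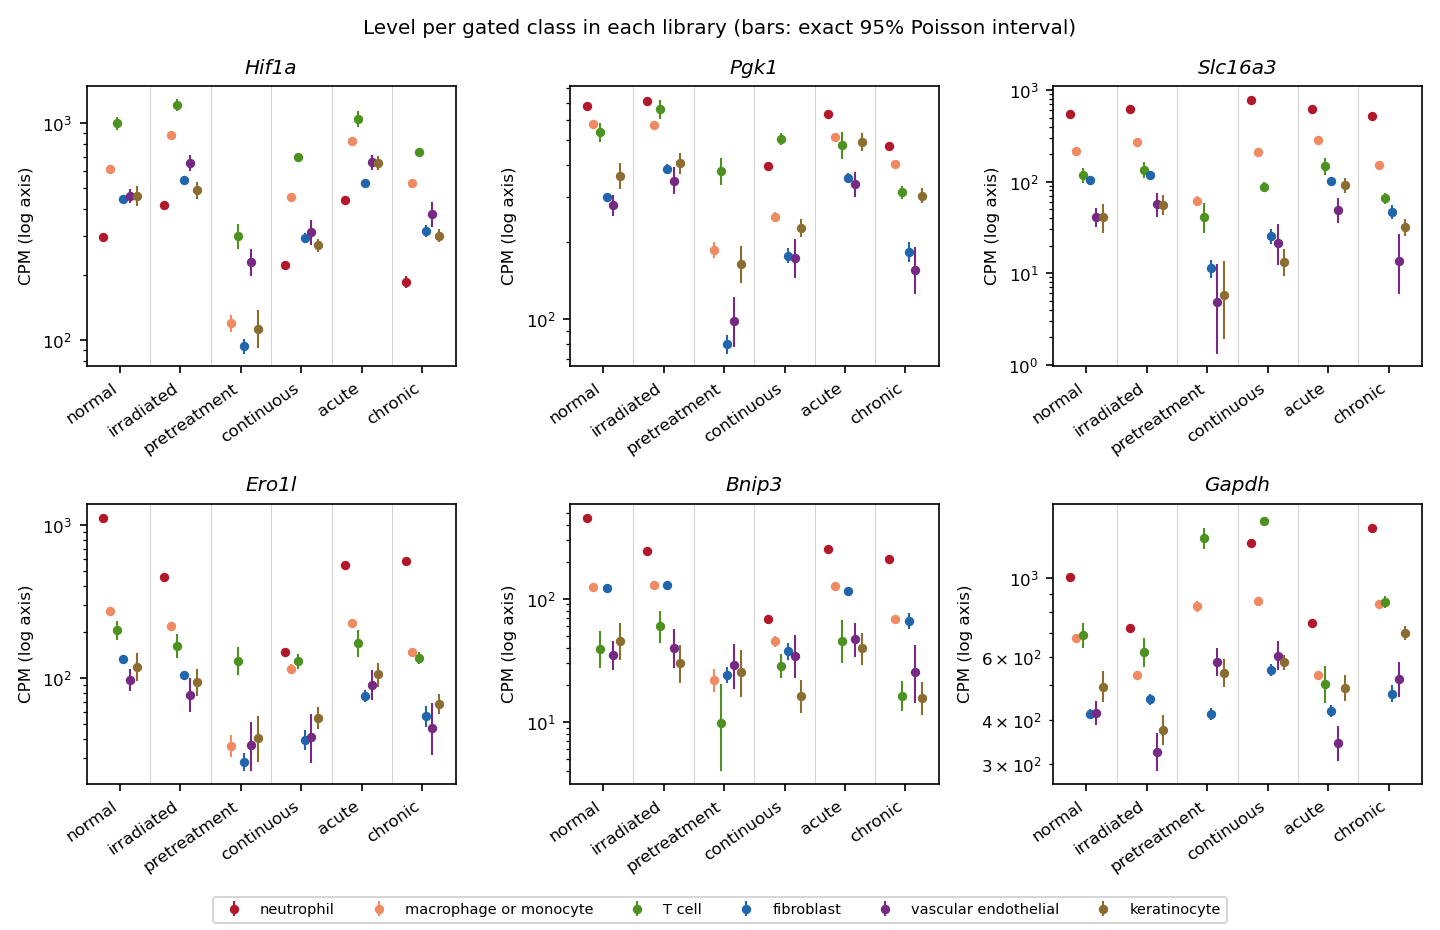
CPM of Hif1a, Pgk1, Slc16a3, Ero1l, Bnip3 and Gapdh (log axes) in each library, coloured by gated class, with exact 95% Poisson intervals. Hif1a was lowest in pretreatment in all 5 classes measured there and Pgk1 in all but T cells, whereas Gapdh was at least 1.5-fold above irradiated in 3 of 5 classes in pretreatment, 5 of 6 in continuous and 4 of 6 in chronic.

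In pretreatment macrophages 24 of 37 genes were lower and 3 higher (all genes 24.5% lower and 27.3% higher), at a median log2 ratio of -0.97. In fibroblasts 26 of the 36 genes with enough UMIs were lower and 2 higher (all genes 20.7% and 21.6%), at a median of -1.21. Pgk1, the phosphoglycerate kinase, was at 301, 388, 80, 177, 357 and 184 CPM in fibroblasts, 4.86-fold lower (95% interval 4.44 to 5.32) in pretreatment, and was lower in 5 of 5 classes. Slc16a3 was 10.4-fold lower (95% interval 8.31 to 13.3) in fibroblasts and 4.43-fold lower (95% interval 3.9 to 5.04) in macrophages. Epas1 differed by class: it was 11.5-fold lower (95% interval 9.92 to 13.3) in fibroblasts, but in endothelial cells it was 1.37-fold higher (95% interval 1.22 to 1.54). In fibroblasts 10 of 13 glycolytic enzymes were lower and 0 higher, while in macrophages 7 of 14 were lower and 3 (Pfkp, Gapdh and Eno1) higher, or 9 and 1 with centred ratios (all genes then 26.7% and 24.5%). T cells had 11 of 32 genes lower and 1 higher (all genes 29.7% and 15.7%), endothelial cells 14 and 3 of 33 (all genes 28.3% and 18.4%) and keratinocytes 16 and 3 of 33 (all genes 34.3% and 23.5%), or 13 and 5 centred (all genes then 28.2% and 28.8%). The T cell share lay close to that of all genes. Kdm3a, 1.83-fold higher (95% interval 1.53 to 2.2), and Pfkfb4 were the 2 genes higher in fibroblasts.

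In the continuous library the same count was 17 of 36 lower and 1 higher in fibroblasts (all genes 15.9% and 13.3%; median log2 ratio -0.58) and 14 of 37 lower and 2 higher in macrophages (all genes 20.5% and 14.8%; median -0.32). Slc16a3, at 104, 117, 11.2, 25.3, 101 and 46.4 CPM in fibroblasts, was 4.65-fold lower (95% interval 3.82 to 5.7). Bnip3 was 3.46-fold lower (95% interval 2.94 to 4.1) in fibroblasts and 2.87-fold lower (95% interval 2.57 to 3.21) in macrophages. T cells had 10 lower and 4 higher of 35 (all genes 24.3% and 14.1%), or 7 and 6 centred (all genes then 17.3% and 19.3%), endothelial cells 13 and 3 of 33 (all genes 22.8% and 15.6%) and keratinocytes 15 and 2 of 36 (all genes 23.2% and 20%). Gapdh ran the other way, higher in 5 of 6 classes; in T cells, at 689, 618, 1289, 1437, 503 and 855 CPM, it was 2.33-fold higher (95% interval 2.12 to 2.56).

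Continuous neutrophils had 16 of 37 genes lower and 3 higher, a share of lower genes near that of all genes (44.6% lower and 7.73% higher). With cells thinned to 1000 UMIs each, 16 were lower and 4 higher (all genes then 41.6% and 8.5%). S100a8 and S100a9 took 19.2% of their UMIs against 8.44% in irradiated neutrophils. After the ratios were centred on the median of all genes, 8 were lower and 13 higher (all genes then 23.9% and 20.9%). Of these 8, 6 were among the 11 other HIF targets, with Ndrg1 3.71-fold lower (95% interval 3.34 to 4.13), Bnip3 3.62-fold lower (95% interval 3.32 to 3.95) and Ero1l 3.09-fold lower (95% interval 2.91 to 3.28) before centring. Of the 4 transporters, 3 were higher after centring, and Slc2a3 and Slc16a3 were higher than in irradiated neutrophils before it, at 1.38 and 1.27 times the irradiated level. Ankrd37 was 2.22-fold higher (95% interval 1.94 to 2.54).

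Chronic fibroblasts had 18 of 36 genes lower and 0 higher (all genes 11.2% and 11.6%; median log2 ratio -0.58), and chronic T cells 15 of 35 and 0 (all genes 21.4% and 10.2%; median -0.39). Pgk1 was 2.11-fold lower (95% interval 1.92 to 2.33) in fibroblasts and 2.11-fold lower (95% interval 1.9 to 2.35) in T cells. Tpi1 and Pgam1, enzymes of glycolysis, were 2.09-fold and 2.07-fold lower in T cells. Macrophages had 8 lower and 1 higher (all genes 13.5% and 9.48%), with 0 of 14 glycolytic enzymes among the lower and Gapdh 1.58-fold higher (95% interval 1.53 to 1.62). Chronic neutrophils had 4 lower and 4 higher (all genes 28.1% and 9.68%), or 2 and 8 after centring (all genes then 20.3% and 16.4%), with Ankrd37 2.88-fold higher (95% interval 2.48 to 3.34) and Hif1a 2.27-fold lower (95% interval 2.11 to 2.45). Endothelial cells had 13 lower and 2 higher of 33 (all genes 19.2% and 12.3%) and keratinocytes 9 and 3 of 37 (all genes 21.8% and 11.5%), or 6 and 4 centred (all genes then 14.4% and 17%). This library and the irradiated one both held hashtag antibodies, while pretreatment and continuous held none.

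The acute library was compared with the irradiated one in the same way. Its neutrophils and macrophages had 0 of 37 genes past 1.5-fold in either direction (all genes 15.1% higher and 3.66% lower in neutrophils, 4.85% and 3.87% in macrophages). With cells thinned to 1000 UMIs each, neutrophils had 3 genes higher and 1 lower (all genes then 25.1% and 3.79%), and macrophages again 0. With centred ratios neutrophils had 0 in either direction (all genes then 7.28% and 7.56%). With a stricter gate neutrophils had 1 higher and 1 lower. The share of all genes at that gate is not given here, so this count does not set the listed genes apart. T cells had 1 gene lower, Pdk1, whose interval reached both sides of equality (all genes 9.96% lower and 8.53% higher), and 2 lower and 5 higher in thinned cells (all genes then 11% and 10.9%). Fibroblasts had 2 higher, Slc2a3 and Ankrd37, and 2 lower, Eno1 and Adm (all genes 5.6% and 3.44%); Adm was 1.85-fold lower (95% interval 1.7 to 2.03). Endothelial cells had 0 higher and 2 lower (all genes 7.99% and 7.68%) and keratinocytes 4 and 3 (all genes 9.53% and 12.7%), or 5 and 1 centred (all genes then 10.4% and 11.6%).

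**Figure D5:**
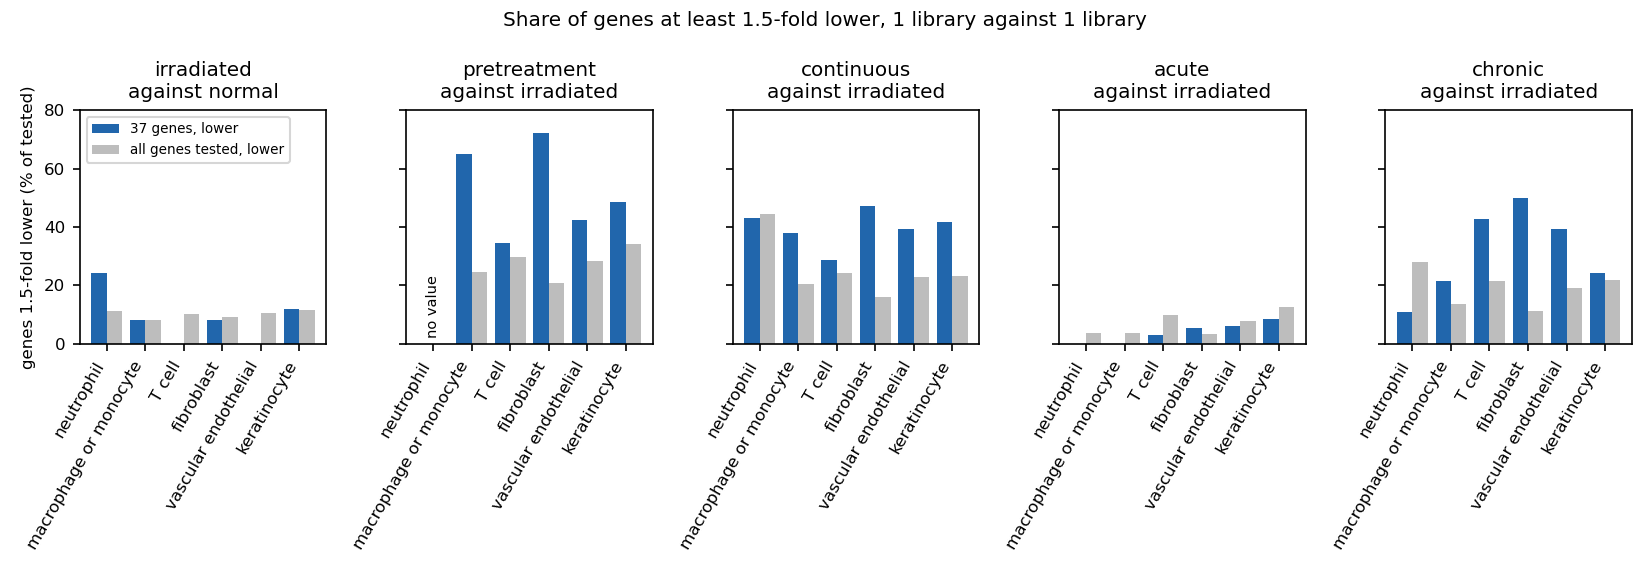
Percent of genes at least 1.5-fold lower in each label comparison (panels) and gated class (horizontal axis), for the listed genes (blue) and all genes tested (grey), 1 library against 1. In chronic fibroblasts 18 of 36 genes were lower against 11.2% of all genes, and in pretreatment neutrophils no value was computed.

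Other genes of the pathways were read the same way. Of the further HIF-linked genes, 18 of 27 were lower and 0 higher in pretreatment macrophages, 16 of 27 and 0 in continuous, 11 of 28 and 0 in chronic and 2 of 28 and 0 in acute macrophages. In that order 24.5%, 20.5%, 13.5% and 3.87% of all genes were lower. Outside macrophages, Hmox1, heme oxygenase, was 2.09-fold lower (95% interval 2.05 to 2.14) in irradiated than in normal neutrophils. The 29 further HIF-linked genes, Hmox1 included, together summed to 9235 CPM in normal and 8506 CPM in irradiated neutrophils. Respiration genes in macrophages were 16 of 24 higher and 0 lower in pretreatment, 10 and 0 in continuous, 8 and 0 in chronic and 0 and 0 in acute, while 27.3%, 14.8%, 9.48% and 4.85% of all genes were higher. The median log2 ratio of these 24 was 0.79, 0.49, 0.54 and 0.12 in that order, while that of the 37 hypoxia and glycolysis genes was -0.97, -0.32, -0.28 and -0.01 and that of all genes 0.08, -0.05, -0.01 and 0.05. In fibroblasts 1 respiration gene was higher and 1 lower in pretreatment (all genes 21.6% and 20.7%), 3 and 0 in continuous (all genes 13.3% and 15.9%) and 2 and 0 in chronic (all genes 11.6% and 11.2%).

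Depth and the marker RNA of other classes moved with these label differences. The median UMIs per cell were 2243, 2273, 13548, 4999, 1779 and 4360.0 in macrophages and 3996, 4842, 11343, 8782, 3675 and 7804 in fibroblasts, so pretreatment, continuous and chronic cells were deeper than the others. Neutrophil marker RNA in fibroblasts summed to 1900.4, 1579, 379, 716, 1423 and 472 CPM and fibroblast marker RNA in macrophages to 1006, 1171, 203, 215, 1167 and 292 CPM over 8 markers, lower in the same 3 libraries. Neither the source of this marker RNA nor its part in the differences was tested. Cells were also thinned to 1000 UMIs each, which left out shallower cells and kept 297 to 5371 macrophages and 1987 to 4606 neutrophils per library. At that depth a Hif1a UMI was found in 42.9, 55, 9.76, 34.3, 54.1 and 40.1% of macrophages and in 34.6, 38.6, 6.65, 21.4, 36.5 and 20.6% of fibroblasts. The same share for Ero1l in neutrophils was 46.9, 28.8, 12, 30 and 30.2%, and for Slc2a3 it was 24, 25, 31.1, 27 and 22.5% in neutrophils and 1.86, 2.65, 1.01, 0.551, 2.16 and 0.536% in macrophages. In pretreatment macrophages the Hif1a share was 9.76% (95% interval 6.64 to 13.7) against 55% (95% interval 53.5 to 56.4) in irradiated ones, both exact binomial intervals. Unthinned, the macrophage shares were 65.7, 76.9, 65.7, 73.3, 71.2 and 78.8%. In thinned cells the counts of lower genes moved from 15 to 9 in chronic T cells (all genes then 21.3%), from 10 to 4 in continuous T cells (all genes then 24.3%), and in endothelial cells from 14 to 7 in pretreatment, 13 to 7 in continuous and 13 to 6 in chronic (all genes then 35%, 26.4% and 23.9%). Thinning kept 84, 158 and 121 endothelial cells in pretreatment, continuous and chronic and 208 in irradiated. Thinned sums hold fewer UMIs, so some listed genes may fall under the minimum UMIs for a ratio. The number of listed genes left in thinned cells is not given here. The smaller counts can therefore not be read as lost differences or set against the shares of all genes. The makeup of cells within a class was not tested.

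Gapdh, Pgk1, Tpi1, Ldha, Pkm, Pgam1, Aldoa and Eno1 have near-identical pseudogene copies in the mouse genome, so their counts depend on how reads were assigned and are less certain than those of single-copy genes. Levels of different genes were not compared with each other, since counts were not scaled to length.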

How the data were processed

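The files held UMI counts per gene and cell barcode, deposited by the authors as 6 matrices. Per the submitters' processing notes, Cell Ranger and Seurat 5.0.1 were used with Sscrofa11.1; per the file headers, Cell Ranger 6.0.0 made the matrices, whose 32285 gene features are all mouse Ensembl identifiers. Libraries held 18611144 to 54966435 gene UMIs. Genes were matched by symbol, and the members and lists were chosen with earlier results of these data known.

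Barcodes were kept from 500 UMIs and 300 genes upward with no more than 20% of UMIs from mitochondrial genes, and those with the highest Scrublet scores (scanpy 1.11.5) were removed at 0.8% per 1000 barcodes, up to 10%. Cells were gated into classes with fixed markers, and no clustering was used. UMIs were summed per class and library with at least 50 cells. Classes were compared with edgeR 4.0.16 (quasi-likelihood test, TMM, filterByExpr, library as a block, all classes in 1 fit, Benjamini-Hochberg over all genes tested), and the fit was tested on simulated data. Each SE is the absolute log2 difference divided by the square root of its F statistic, so it rests on the spread estimated over all classes. Labels were compared by ratios of CPM with exact 95% Poisson intervals, with no test. Shares of cells carry exact Clopper-Pearson intervals. Members named in each comparison were those past the call or 1.5-fold rule, by role and by fold, and contrasting members of the same role. Examples from the other lists, such as Fh1 and Hmox1, and some members were chosen after their values were seen. A withheld item is not reported here.

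The library number block is in every class comparison, since classes of a library share its cells and its run. Alternatives were DESeq2 1.42.0, RLE normalization, no filter on low counts, no block, each library left out, other filters, doublets kept, a stricter gate, thinning to 1000 UMIs, centred ratios and a minimum of 50 UMIs. Scaling to total UMIs was added after seeing the data. Python 3.11.15, R 4.3.3, numpy 2.4.6, scipy 1.17.1, pandas 2.3.3 and matplotlib 3.10.9 were used.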

Additional observations from a re-analysis of the deposited data

Results flagged for a closer look

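Several genes were past 1.5-fold in opposite directions in 2 or more classes of the same comparison of libraries. Each value is a log2 ratio of 1 library to 1 other, and the difference between classes was not tested. The share of all genes that did the same is not given here, so these cases do not set the listed genes apart. In irradiated against normal, Adm was at 0.949 in fibroblasts and -1.24 in keratinocytes.

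In continuous against irradiated, Epas1 was at -1.03 in macrophages, -1.13 in T cells and -0.975 in keratinocytes but at 0.782 in vascular endothelial cells. Egln1 was at -1.19 in neutrophils and -0.607 in macrophages and at 1.04 in vascular endothelial cells. Hk1 was at 0.673 in T cells and -0.856 in fibroblasts.

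In chronic against irradiated, Pdk1 was at 0.615 in neutrophils and -1.27 in T cells. The T cell value rests on 36 chronic and 21 irradiated UMIs. In pretreatment against irradiated, Egln1 was at -0.685 in macrophages and 1.49 in vascular endothelial cells, and Kdm3a at 0.873 in fibroblasts and -0.776 in keratinocytes. Pfkp was at 0.977 in macrophages, -0.858 in T cells and -0.771 in vascular endothelial cells. Aldoa was at -0.662 in fibroblasts and 0.627 in keratinocytes, and Higd1a at -0.959 and 0.817. Eno1 was at 0.59 in macrophages, -1.22 in fibroblasts and 0.6 in keratinocytes. Here and above, values near 0.6 in either direction lie close to the 1.5-fold threshold.

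Antibody counts outside the gene measurement were present in 4 libraries: 33849896 hashtag antibody UMIs in normal, 41181650 in irradiated, 30643720 in acute and 22083108 in chronic. They were not used, and the sources used here do not tie a hashtag to an animal.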

How the results depend on the processing

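Counts of genes called between classes were within 1.5 times under DESeq2, RLE normalization, no filter, other cell filters, the stricter gate and without the replicate block. Over all alternatives, 160 counts stayed within it and 8 did not. Scaled to total UMIs, 8 were higher and 4 lower in neutrophils against macrophages, 9 and 5 against T cells, and 7 were higher in keratinocytes against fibroblasts. Leaving out each library gave 3 to 5 higher in endothelial cells and 2 to 6 in keratinocytes. Of single genes, Ldha in neutrophils against T cells was at -0.018 on total UMIs. Without the replicate block, Ak4 in keratinocytes against fibroblasts missed the threshold (0.98); no other named call changed with it.

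Counts past 1.5-fold between labels moved by over 1.5 times in 25 repeats and by less in 148. Each count below adds the higher and the lower genes and has no share of all genes beside it. That share and the number of listed genes with enough UMIs can also move with the setting. These counts alone thus do not set the listed genes apart from all genes. Thinning gave 4, 7 and 3 in acute neutrophils, T cells and keratinocytes, 7 and 6 in irradiated macrophages and endothelial cells, 8 and 11 in continuous T cells and keratinocytes, 10 and 12 in pretreatment endothelial cells and keratinocytes and 7 in chronic endothelial cells. The stricter gate gave 2, 2 and 4 in acute neutrophils, T cells and keratinocytes, 7, 3, 7 and 2 in irradiated macrophages, fibroblasts, endothelial cells and keratinocytes and 9 in chronic endothelial cells; it left too few pretreatment keratinocytes for a value. With at least 1000 UMIs per cell, acute neutrophils had 1 and acute T cells 2. With at least 50 UMIs, irradiated T and endothelial cells had 1 and 1, and acute T and endothelial cells 0 and 1. With doublets kept, acute endothelial cells had 1. The cause was not tested. Unthinned, Ero1l was found in 51.9, 35.6, 26.3, 33.2 and 42.1% of neutrophils and Slc2a3 in 28.7, 30.9, 51.8 and 34.3% in normal, irradiated, continuous and chronic ones.

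With 1 library per label, intervals cover counting error only, and T cell, endothelial and keratinocyte values of pretreatment rest on 59 to 90 cells.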
